A study of Mus musculus with 24 samples.

Results

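Gene expression in the ileum and the colon of vitamin D-deficient mice was compared in 6 libraries, 3 of each segment, out of the 24 samples of the series. The 6 were chosen by name: columns 1 to 3 named Vehicle in the ileum table that holds 7 libraries, and the columns of the same names in the colon table of 7. Every mouse was wild type on the C57BL6J background, without a named treatment in the deficient groups. The labels list 4 deficient mice per segment, 3 males and 1 female, with ages of 10 to 13 in a unit that is not stated, and they tie none of these to a column. The series sets such mice against mice that were injected 3 times (48, 24 and 6 h before tissue was taken) with 1 ng/g of calcitriol, the active hormone made from vitamin D. Those treated mice, 4 libraries per segment, took no part in the comparison of the 6 libraries. Their segments were compared on their own. They were also fitted together with the 6 in a test of whether the segment difference changed, added after the data were seen. The ages listed for the treated mice reach beyond the 10 to 13 of the deficient mice, and are not tied to columns either. The labels name the segment but do not say whether whole gut wall or separated epithelium was sequenced.

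The ileum is the last stretch of the small intestine. Its villi carry enterocytes that finish the uptake of sugars, peptides and fat, it takes back conjugated bile acids and vitamin B12, and Paneth cells at the base of its crypts secrete antimicrobial peptides. The colon has no villi and few or no Paneth cells, absorbs salt and water, oxidises the short-chain fatty acids made by bacteria, and is lined with a mucus layer supplied by many goblet cells. Vitamin D acts in both through its nuclear receptor VDR, which raises genes of calcium uptake.

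The values are FPKM (fragments counted per kilobase of transcript and scaled by the mapped total), put on one scale by multiplying each library by a constant of 0.886 to 1.136. The authors normalized the 2 tables separately, so a level set across segments rests on that rescaling. Whole read numbers recovered from the values of 14452 genes summed to 20174460 to 33956802 per ileum library and 26966990 to 28268058 per colon library. These sums rest on estimates and leave out genes for which no number was found, so they are not the sequencing depth. Libraries of one segment correlated at 0.968 or more in the ileum and 0.970 or more in the colon across genes, against at most 0.871 between segments. The 14 defensin genes measured took 10.8%, 11.2% and 15.0% of the summed FPKM of ileum libraries 1, 2 and 3. In each colon library they took at most 0.0417%.

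Of 12506 genes with at least 1 FPKM in 3 or more libraries, 1937 (15.5%) were higher in the ileum and 1580 (12.6%) were higher in the colon, with limma on log2(FPKM + 1) and an adjusted p under 0.05. Together these were 28.1% of the genes tested. Differences of 2-fold or more were called for 892 genes higher in the ileum (7.13%) and 688 higher in the colon (5.50%). All 3 ileum libraries lay above all 3 colon libraries in 2896 genes (23.2%) and below them in 2614 (20.9%). The median difference over all genes tested was -0.01. Of the 3517 calls, the balance of directions depended on the scale: higher-in-ileum calls were 55.1% of all calls here, 24.3% with the values as deposited (1184 against 3682), 43.8% with a median ratio over well-expressed genes (1523 against 1953) and 10.9% with all libraries brought to an equal sum (754 against 6149). Without colon 2 the 3517 calls became 2323 over the same genes, and 2607 to 3624 without another library. The median of all genes moved to -0.29 with the values as deposited, to -0.11 on the second and to -0.56 on the third of these scales (-0.06 after quantile normalization), and the differences below stand relative to the median of -0.01. The labels do not say that libraries came from separate mice, so the p-values measure only the spread between these libraries. In bulk tissue, fewer cells of a type and less RNA per cell cannot be told apart.

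The genes that define the segments matched the labels in nearly every case. All 12 markers of the ileum were tested and called higher in the ileum. Of 13 markers of the colon 12 were tested, of which 10 were called higher in the colon. The exceptions were Zg16, Ang4 and the untested Scnn1g. Zg16, a lectin of goblet cell mucus, stood at 5490.3, 6207 and 6953 FPKM in the ileum and at 5541, 5573 and 3714 in the colon. These ranges overlapped, with a log2 difference of 0.35 ± 0.27 (SE) and a limma adjusted p of 0.391. Ang4, an antimicrobial ribonuclease listed here with the colon but also made by Paneth cells, stood at 1274, 976 and 1877 FPKM in the ileum and at 590.3, 251 and 669 in the colon. All ileum libraries were the higher ones (log2 difference 1.52, limma adjusted p = 0.0284), but the call was lost without ileum 1, ileum 3 or colon 2, with differences of 1.08 to 1.78 and adjusted p up to 0.0678 over the libraries left out. It was also lost with no filter on low values, with the values as deposited and after quantile normalization. Scnn1g, a subunit of the epithelial sodium channel, was listed at 0 in the ileum and at 3.57, 4.97 and 0.446 FPKM in the colon.

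**Figure D1:**
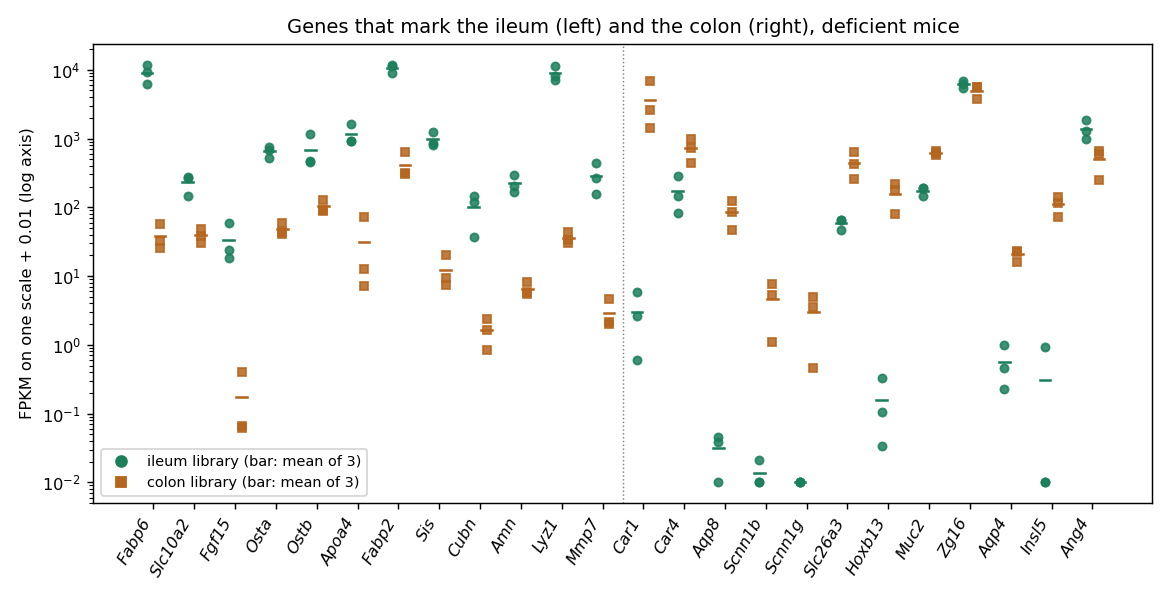
FPKM on one scale plus 0.01 (log axis) of 12 genes that mark the ileum, on the left, and 12 that mark the colon, on the right, with each of the 3 ileum libraries as a circle, each of the 3 colon libraries as a square and the mean as a bar. The libraries of the 2 segments lie apart for each gene shown except Zg16, and Ang4 lies higher in the ileum.

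Transcription factors that pattern the gut differed by family. Of 24 regional factors tested, 12 were higher in the ileum and 4 in the colon, with a median difference of 0.55 that shrank to -0.00 with libraries brought to an equal sum. Gata4, a GATA factor that keeps jejunal identity and fades towards the distal ileum, stood at 5.39, 6.15 and 3.62 FPKM in the ileum and at 0.568, 0.185 and 0.253 in the colon. The groups lay apart, with a log2 difference of 2.17 ± 0.20 and a limma adjusted p of 0.00021. Its relative Gata5 ran from 39.8 to 48.4 FPKM in the ileum and from 0.956 to 1.47 in the colon (log2 difference 4.37). Gata6, expressed along the whole gut, differed by only 0.58, and that limma call was lost without colon 2 (adjusted p = 0.0622) and on 2 other scales.

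The hepatocyte nuclear factors split in a similar manner. Hnf4g, the enterocyte paralogue of HNF4, stood at 159, 86.4 and 113 FPKM in the ileum and at 10.0, 11.4 and 11.3 in the colon. Its log2 difference of 3.30 ± 0.22 compares with 0.69 for Hnf4a, which every library carried at 127 FPKM or more and whose call was lost on 3 of the other scales. Maf (4.03), a regulator of enterocyte maturation, and Creb3l3 (4.94), a membrane-bound factor that drives apolipoprotein genes, were also far higher in the ileum. On the colonic side, Foxa1, a forkhead factor tied to secretory cells, reached 30.0, 27.4 and 32.3 FPKM in the colon against 9.65, 8.12 and 11.5 for the ileum. The segments lay apart (log2 difference -1.53 ± 0.15, limma adjusted p = 0.000274), and its relative Foxa3 was higher in the colon too (-0.88). The caudal factors Cdx1 (-0.64) and Cdx2 (0.63) differed little and in opposite directions. The limma call for Cdx1 was lost without colon 1 or colon 2 (adjusted p up to 0.0625), and that for Cdx2 without ileum 1, ileum 2, colon 1 or colon 2 (adjusted p up to 0.137) and on 4 other scales. Osr2 (1.49), Isx (1.35), an enterocyte homeobox factor, and Zfp503 (0.52) were the other ileum-high members, while Prdm1 (0.58), Klf4 (-0.64), Klf5 (-0.44), Nr5a2 (-0.17), Satb1 (-0.11) and Tcf7l2 (-0.47) were not called. The call for Zfp503 was lost without colon 1 or colon 2, as deposited and at equal sums, and that for Isx at equal sums. With the library number as a block, Prdm1 passed the test.

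HOX genes, which lie in 4 clusters and specify position along the body axis in the order of their number, were mostly higher in the colon. Among 39 measured genes 26 were tested, 19 of them higher in the colon and 3 in the ileum, with a median of -1.34. Members near 0 in a segment passed the filter through the other segment alone, so these counts describe the genes and carry no further weight. Hoxb13 (chr11:96055630-96058761 in NCBIM37, the mm9 assembly), the most distal gene of its cluster, stood at 216, 178 and 80.0 FPKM in the colon and at 0.317, 0.0236 and 0.0958 in the ileum. The log2 difference was -7.01 ± 0.34 with a limma adjusted p of 9.95e-06, and the segments lay far apart. Hoxa10 was at 23.4, 22.7 and 13.0 FPKM in the colon and at 0.0468, 0 and 0.0314 in the ileum (log2 difference -4.29). Hoxd13 was at 21.9, 19.9 and 7.03 FPKM in the colon and at no more than 0.0327 in the ileum (log2 difference -3.94).

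By cluster, 9 of 9 tested Hoxa genes and 5 of 5 tested Hoxd genes were higher in the colon. In the Hoxb cluster 5 of 9 were, and the other 4 were not called. Of 9 measured Hoxc genes 3 were tested, and these went the other way. They passed the filter through the ileum alone, so their direction carries no further weight. Hoxc8 (chr15:102821053-102824698) stood at 7.75, 8.44 and 10.0 FPKM in the ileum and at 0.140, 0.123 and 0.283 in the colon, a log2 difference of 3.04 ± 0.15 with a limma adjusted p of 9.02e-06. Hoxc6 (2.42) and Hoxc4 (1.01) followed it. All 10 tested genes of paralogue groups 9 to 13 were higher in the colon, while Hoxb2 (0.24), Hoxb4 (0.12), Hoxb6 (-0.31) and Hoxb7 (0.18) were not called. Of the middle Hoxa genes, Hoxa2 differed by -1.62, Hoxa3 by -2.06, Hoxa5 by -1.81, Hoxa6 by -1.95 and Hoxa7 by -2.66, and the distal Hoxa9, Hoxa11 and Hoxa13 by -2.91, -3.46 and -3.78. Hoxb9 (-1.46), Hoxd4 (-1.13), Hoxd9 (-1.19), Hoxd10 (-2.21) and Hoxd11 (-1.21) completed the colon-high genes. The smallest colon calls of the cluster were not stable: Hoxb8 (-0.51) lost its call without each library in turn and in the fit with the library number as a block, Hoxb5 (-0.47) without ileum 1, ileum 3 or any colon library, and Hoxb3 (-0.62) without colon 1 or, with the filter applied anew, colon 3. Their leave-one-out ranges were -0.61 to -0.39, -0.53 to -0.42 and -0.71 to -0.55.

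**Figure D2:**
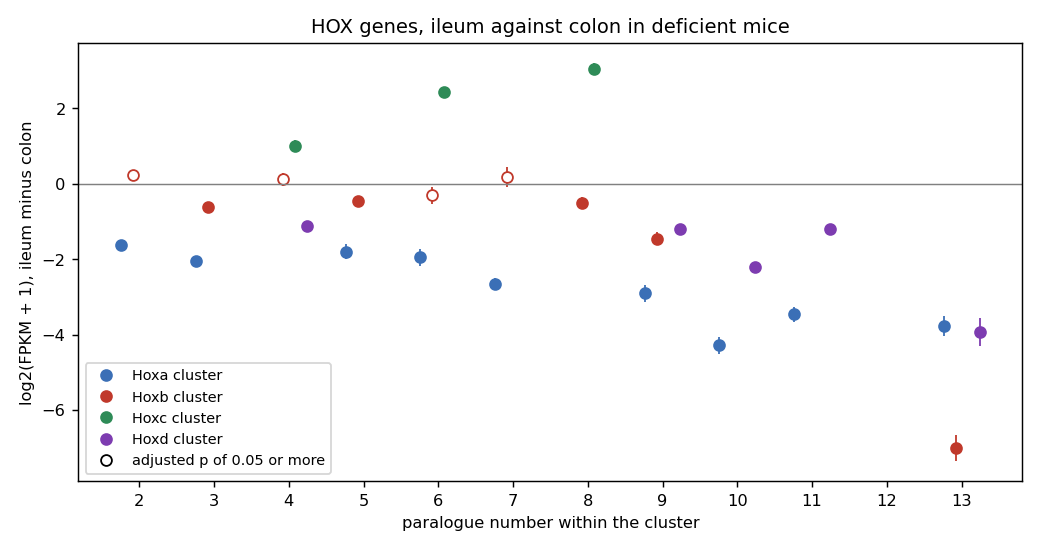
Difference in log2(FPKM + 1) between ileum and colon (vertical axis, with 1 SE) of the 26 tested HOX genes by paralogue number (horizontal axis), coloured by cluster, with open points for genes whose adjusted p was 0.05 or more. The Hoxc genes lie above 0, from 1.01 for Hoxc4 to 3.04 for Hoxc8, and Hoxb13 lies lowest at -7.01.

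Bile acid genes are the classic signature of the ileum. Of 13 tested, 8 were higher in the ileum and 4 in the colon, with a median of 2.05. With the filter applied anew without 1 ileum library, 12 were tested and 7 or 8 were called higher in the ileum. Slc10a2 (ASBT), the sodium-dependent transporter that takes bile acids in from the lumen, stood at 277, 145 and 271 FPKM in the ileum and at 38.7, 30.0 and 48.1 in the colon. The log2 difference was 2.50 ± 0.29 (limma adjusted p = 0.00059), and no colon library reached the ileum range. Fabp6, the cytosolic bile acid binding protein, was at 6136, 9238 and 11790.0 FPKM in the ileum and at 25.7, 56.7 and 31.9 in the colon. Its difference of 7.89 ± 0.34 (limma adjusted p = 7.14e-06) was the largest of the list. Osta and Ostb (Slc51a and Slc51b), the 2 subunits of the basolateral exporter, differed by 3.74 and 2.61.

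Fgf15, the hormone by which the ileum restrains bile acid synthesis in the liver, was at 23.6, 58.5 and 18.6 FPKM in the ileum. In the colon it was at 0.0565, 0.387 and 0.0520 (log2 difference 4.73 ± 0.39, limma adjusted p = 0.000106). It belongs to 18 genes with at least 5 FPKM in each ileum library and under 0.5 in each colon library, beside Hoxc8, Aqp3, Defa6 and Rdh7. Nr1h4 (FXR), the bile acid receptor that drives Fgf15 and Fabp6, differed by only 0.90. Abcc2, an apical exporter of conjugates, was higher in the ileum (4.30), whereas the basolateral exporters Abcc3 (-1.73) and Abcc4 (-0.62) and the FGF receptor parts Klb (-1.13) and Fgfr4 (-0.61) were higher in the colon. These 4 became 2 without ileum 2 or colon 1 and 1, Abcc3, without colon 2. The uptake carrier Slco2b1 was higher in the ileum (2.05), and Cyp27a1 (1.29), a sterol hydroxylase, was not called over the 6 libraries but was with the library number as a block and without ileum 3.

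Vitamin B12 uptake gave a like split at receptor level. Cubn, the cubilin receptor for the vitamin bound to intrinsic factor, was at 148, 119 and 36.5 FPKM in the ileum against 2.37, 1.66 and 0.827 in the colon. Its partner amnionless, Amn, was at 204, 294 and 168 FPKM against 8.19, 5.91 and 5.47. Both were higher in every ileum library, by 5.11 and 4.87 on the log2 scale. The carrier Tcn2 was higher in the ileum too (2.54), while its receptor Cd320 (-1.40) and the exporter Abcc1 (-1.19) were higher in the colon, so of 6 tested members 3 went one way and 2 the other.

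Genes for digestion and uptake of food were nearly all higher in the ileum. Of 22 brush border hydrolases tested, 21 were higher in the ileum and none in the colon, with a median of 4.69, and the same 21 and 0 were counted without each library in turn. Sis (sucrase-isomaltase), which splits sucrose and starch fragments, was at 1258, 797 and 873 FPKM in the ileum and at 20.2, 9.24 and 7.34 in the colon. Anpep (chr7:86966689-86993096), aminopeptidase N of the brush border, was at 2983, 3020.1 and 2012 FPKM against 11.3, 13.3 and 6.63. The segments lay apart by 6.30 ± 0.35 and 7.90 ± 0.27 on the log2 scale, with limma adjusted p of 1.72e-05 and 2.45e-06. The peptidases Enpep (6.25) and Dpp4 (4.22) and the secreted phospholipase Pla2g12b (5.23) followed them. Alpi, intestinal alkaline phosphatase, differed by 3.88.

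Transporters of sugars, amino acids and nucleosides were higher in the ileum in 19 of 24 cases and higher in the colon in 2, with a median of 3.09. Some members passed the filter through the ileum alone. With the filter applied anew without 1 ileum library, 16 of 21 were called higher in the ileum. Slc2a5 (GLUT5), the fructose carrier, ran from 48.7 to 69.9 FPKM in the ileum and from 1.80 to 3.95 in the colon (log2 difference 4.02). Slc7a9 (4.47) and Slc3a1 (3.11), the 2 chains of the cystine and dibasic amino acid transporter, and Slc43a2 (4.33), an exporter of large neutral amino acids, were also higher there. Slc6a14, a broad amino acid transporter, was the reverse: it stood at 317, 295 and 291 FPKM in the colon and at 3.90, 5.39 and 28.6 in the ileum. Ileum 3 was the highest of its group, yet the segments lay apart by -4.95 ± 0.60 (limma adjusted p = 0.000767). The glutamine carrier Slc1a5 differed by -0.58, and that call was lost without ileum 2, colon 1 or colon 2 (adjusted p up to 0.104).

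Fat absorption followed the same direction in 22 of 27 genes, with 1 higher in the colon and a median of 3.81. Npc1l1, the cholesterol importer, was at 239, 229.9 and 149.9 FPKM in the ileum and at 2.26, 1.31 and 0.690 in the colon (log2 difference 6.44 ± 0.27, limma adjusted p = 6.65e-06). Mogat2 (5.79), which rebuilds diglycerides, Soat2 (4.83), which esterifies cholesterol, and Apoa1 (8.06), a lipoprotein of chylomicrons and high-density particles, lay apart in the same way. Fabp2, the intestinal fatty acid binding protein, was at 11716, 9065 and 11205 FPKM in the ileum and at 318, 306 and 631 in the colon. The exception was Scarb1, a receptor for high-density lipoprotein, which was higher in the colon (-0.93). Cd36, Plin2, Apobec1 and Clps were not called.

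Promoters of some of these genes are shown because HNF4 sites mark many enterocyte genes. The letters CAAAGTNCA, a pairing of HNF4 core motifs, were searched on both strands in windows of 300 bases, from 250 before to 50 after each RefSeq gene start (GRCm38.p6). They occurred in 380 of 27025 promoters (1.41%) and in 108 of the 8891 tested genes that had a window (1.21%). Among genes higher in the ileum by 2-fold or more they occurred in 24 of 619 (3.88%), and among those higher in the colon in 3 of 461 (0.651%). The fat absorption list had 3 of 20 (Apoa4, Fabp2 and Apobec1, which was not called), the hydrolase list 2 of 18 (Treh and Alpi) and the nutrient transporter list 1 of 22 (Slc3a1). A match is a description of letters, not a bound site, and the part of HNF4 factors in the segment differences was not tested. The 6 windows below were picked after their values were seen to show the match in genes of fat, vitamin A, sugar, amino acid and drug handling. Capitals mark the match or its reverse complement, and each window runs 5′ to 3′ on the gene's strand.
Apoa4, apolipoprotein A-IV of chylomicrons, chr9:46240637-46240695, plus strand: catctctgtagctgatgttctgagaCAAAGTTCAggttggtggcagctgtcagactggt
Fabp2, chr3:122894910-122894968, plus strand: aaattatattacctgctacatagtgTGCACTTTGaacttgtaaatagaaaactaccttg
Rbp2, cellular retinol binding protein of enterocytes, chr9:98490411-98490469, plus strand: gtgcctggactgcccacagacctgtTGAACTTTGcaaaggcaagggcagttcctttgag
Treh, trehalase, chr9:44673137-44673195, plus strand: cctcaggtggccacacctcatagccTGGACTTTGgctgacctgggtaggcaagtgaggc
Slc3a1, chr17:85028283-85028341, plus strand: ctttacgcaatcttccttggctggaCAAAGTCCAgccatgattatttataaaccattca
Cyp3a11, a drug-metabolising cytochrome, chr5:145879930-145879988, minus strand: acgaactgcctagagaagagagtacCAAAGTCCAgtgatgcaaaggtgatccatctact

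The genes with these windows were measured at high levels in the ileum. Apoa4 stood at 929, 1646 and 919.7 FPKM in the ileum and at 72.9, 7.06 and 12.6 in the colon (log2 difference 5.80, limma adjusted p = 0.000967). Rbp2 stood at 917, 1104 and 1062 FPKM against 111, 55.8 and 26.0 (log2 difference 4.20). Treh ran from 64.9 to 150.5 FPKM in the ileum and from 0.560 to 2.16 in the colon. In each of these genes every ileum library exceeded every colon library.

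Salt and water transport leaned towards the colon. Of 39 genes tested, 22 were higher in the colon and 7 in the ileum, with a median of -0.94. Some members passed the filter through the colon alone: with the filter applied anew without 1 colon library, 32 were tested and 12 (without colon 2) or 13 (without colon 1 or colon 3) were called higher in the colon, with medians of -0.55 to -0.36. Car1 (chr3:14766217-14778459), the cytosolic carbonic anhydrase of colonocytes, was at 2614, 1417 and 6869 FPKM in the colon and at 2.59, 0.589 and 5.83 in the ileum. Its difference of -9.76 ± 0.66 (limma adjusted p = 4.35e-05) was the most negative of all genes tested. The water channel Aqp8 was at 125, 86.5 and 47.0 FPKM in the colon and at 0.0360, 0 and 0.0290 in the ileum (log2 difference -6.31). Both lay apart without overlap.

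The sodium, chloride and potassium handling genes of surface colonocytes were higher in the colon as well. Atp12a, the colonic proton-potassium pump, was at 222, 140.5 and 40.9 FPKM in the colon and at no more than 0.210 in the ileum (log2 difference -6.64 ± 0.54, limma adjusted p = 0.000101). Fxyd4, a modulator of the sodium pump, was at 254, 158 and 21.1 FPKM in the colon and listed at 0 in ileum 2 and 3 (log2 difference -6.39). Scnn1b, the beta subunit of the epithelial sodium channel, was at 7.74, 5.22 and 1.09 FPKM against at most 0.0111 (log2 difference -2.27). In each of these, colon 3 was the lowest colon library. Slc26a3, the chloride-bicarbonate exchanger known as DRA, differed by -2.81, Car4 by -2.17, Car2 by -3.08 and the water channel Aqp4 by -3.82.

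Among the 7 ileum-high members, Slc26a6, the other apical anion exchanger, was at 219, 237 and 211 FPKM in the ileum and at 3.38, 2.11 and 1.86 in the colon. That log2 difference of 6.04 ± 0.18 (limma adjusted p = 1.95e-06) is opposite in sign to that of Slc26a3. Guca2b (uroguanylin), a peptide that opens fluid secretion through guanylate cyclase C, was at 1848, 1661 and 1499.8 FPKM against 76.6, 53.6 and 40.1 (log2 difference 4.90). The aquaglyceroporins Aqp3 (3.05) and Aqp7 (2.84) were higher in the ileum too. Thus the water channels divided by member, with Aqp4 and Aqp8 on the colonic side and Aqp3 and Aqp7 on the ileal side.

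Genes for the use of short-chain fatty acids were higher in the colon in 6 of 12 cases and in the ileum in 1, with a median of -0.41, and the 6 became 3 without ileum 1. Acsm3, which activates butyrate-length fatty acids, stood at 69.7, 70.9 and 62.5 FPKM in the colon and at 10.2, 8.21 and 6.65 in the ileum (log2 difference -2.89 ± 0.16, limma adjusted p = 1.84e-05). The monocarboxylate carrier Slc16a1 differed by -1.34, and neither gene overlapped between segments. The exception was Slc5a12, a sodium-coupled monocarboxylate transporter, which was higher in the ileum (4.39).

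Goblet cell genes were higher in the colon in 19 of 28 cases, with a median of -1.15. The summed FPKM of the list did not lean that way: it was 15965, 17938 and 20858 in the ileum against 18749, 18167 and 16686 for the colon. Muc2, the gel-forming mucin, was at 651, 583 and 625 FPKM in the colon and at 188, 192 and 144 in the ileum. Its difference of -1.83 ± 0.16 (limma adjusted p = 0.000173) came with no overlap. Retnlb, a bactericidal goblet cell protein, was at 246, 106 and 647 FPKM in the colon and at 0.357, 0.373 and 6.76 in the ileum (log2 difference -6.72). Klk1, a kallikrein protease (-3.84), the secretory factor Creb3l1 (-2.72), the membrane mucin Muc4 (-2.53) and the mucin glycosyltransferase B3gnt6 (-1.90) were higher in the colon also. The single ileum-high member was Tff3, the trefoil peptide, at 5531, 7018 and 6900.1 FPKM against 3477, 3807 and 1742. Its difference of 1.18 (limma adjusted p = 0.0373) lost its call without each library in turn (0.82 to 1.39) and was -0.32 after quantile normalization.

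Paneth cell granule genes had the largest median difference of the 45 lists examined. Among 22 measured genes 18 were tested, 17 of them higher in the ileum, with a median of 8.37. Some members passed the filter through the ileum alone. With the filter applied anew without 1 ileum library, 15 were tested and 13 or 14 were called higher in the ileum. The alpha-defensins are near-identical peptides, and how reads were divided among them is unknown, so single members are uncertain. Defa21 (chr8:22165224-22166195) was listed at 18693, 21411 and 36611 FPKM in the ileum and at 21.8, 58.1 and 24.2 in the colon. Defa22 (chr8:22301956-22302928) was listed at 18892, 21443 and 36400.0 FPKM against 25.5, 52.3 and 24.0. The 2 genes gave the same differences within their error, 9.56 ± 0.41 and 9.55 ± 0.36, with limma adjusted p of 6.97e-06 and 4.04e-06. Ileum 3 was the highest library for both.

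The start regions of 3 defensin genes are shown because they differ so little that the genes can hardly be separated by their promoters. Over the 250 bases before the RefSeq start (GRCm38.p6), Defa21 and Defa22 had 0 mismatches and Defa20 had 5 against either (98.0% identical). The last 120 bases are printed, 5′ to 3′ on the plus strand, with capitals at the 5 positions where the 3 differ.
Defa20, chr8:21509138-21509257: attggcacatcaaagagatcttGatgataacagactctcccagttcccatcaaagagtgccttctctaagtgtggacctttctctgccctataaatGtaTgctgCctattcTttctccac
Defa21, chr8:21025425-21025544: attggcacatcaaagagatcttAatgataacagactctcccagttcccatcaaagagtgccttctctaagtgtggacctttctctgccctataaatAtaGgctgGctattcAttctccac
Defa22, chr8:21162157-21162276: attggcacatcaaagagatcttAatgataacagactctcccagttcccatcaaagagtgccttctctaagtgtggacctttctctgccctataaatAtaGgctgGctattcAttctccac

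Other granule genes, which share no sequence with the defensins, went the same way. Lyz1, Paneth cell lysozyme, was at 8243, 7105 and 11345 FPKM in the ileum and at 30.2, 44.1 and 33.6 in the colon (log2 difference 7.90 ± 0.23, limma adjusted p = 1.95e-06). Itln1, a lectin of Paneth and goblet cells, differed by 7.99 and Mmp7, the protease that activates defensins, by 6.14. The summed FPKM of the list was 93669, 95925 and 171258 in the ileum against 828 to 1134 for the colon. Only Nupr1, a stress-linked chromatin protein, was higher in the colon (-1.47).

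Reg lectins, bactericidal proteins of the epithelium, varied more between libraries than the defensins did. Reg3b was at 10749.7, 5384 and 50539 FPKM in the ileum and at 108, 78.0 and 4997 in the colon, and Reg3g at 4404, 1533 and 21589.8 against 22.2, 18.4 and 779.8. Library 3 was the highest of both segments for both genes. The differences of 5.35 ± 1.57 and 6.22 ± 1.51 had limma adjusted p of 0.0395 and 0.0189. The call for Reg3b was lost without any one library except colon 3 (4.27 to 7.27), and that for Reg3g without ileum 1, colon 1 or colon 2 (5.20 to 7.96). Reg3b also lost its call with no filter on low values, after quantile normalization, with robust variance and with voom. Robust variance removed the call for Reg3g too. Reg3a was higher in the ileum (4.36) and Reg4 in the colon (-0.99).

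Epithelial defence genes other than these leaned to the colon: 15 of 26 were higher there and 3 in the ileum, with a median of -0.99. Some members passed the filter through the colon alone: with the filter applied anew without 1 colon library, 23 were tested and 8 (without colon 1 or colon 3) or 9 (without colon 2) were called higher in the colon. The lipopolysaccharide receptor parts Tlr4 and Cd14 were among them. Tlr4 was at 4.92, 5.02 and 5.26 FPKM in the colon and at 0.831, 0.704 and 0.820 in the ileum (log2 difference -1.76 ± 0.12, limma adjusted p = 4.74e-05), and Cd14 differed by -1.77. The gasdermins Gsdmc4 (-3.76) and Gsdmc2 (-3.26) were higher in the colon as well. On the ileal side, Nos2, the inducible nitric oxide synthase, was at 46.0, 15.4 and 21.9 FPKM against 0, 0.120 and 0.718 in the colon (log2 difference 4.39). Nlrp9b, an epithelial inflammasome sensor, differed by 1.18, and Ido1, which breaks down tryptophan, by 1.13, a call lost without ileum 1, ileum 3, colon 1 or colon 2.

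Hormones of enteroendocrine cells divided by peptide. Of 15 tested, 6 were higher in the ileum and 5 in the colon, and the 5 became 3 without ileum 1, ileum 2 or colon 2. The median of 0.35 was -0.23 with libraries brought to an equal sum. Insl5 (chr4:102690477-102699447), the insulin-like peptide of colonic L cells, was at 116, 140.3 and 73.4 FPKM in the colon and at 0.907, 0 and 0 in the ileum (log2 difference -6.43 ± 0.32, limma adjusted p = 1.07e-05). Ppy, pancreatic polypeptide, was at 31.1, 30.9 and 12.5 FPKM in the colon and at most 2.37 in the ileum (log2 difference -3.50). Nmu, neuromedin U, differed by -1.36.

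In the ileum, Nts (neurotensin) was at 223, 179.8 and 210.2 FPKM against 24.4, 24.2 and 44.9 in the colon (log2 difference 2.73 ± 0.25, limma adjusted p = 0.000173). Gip, the incretin of upper intestinal K cells, was at 42.8, 62.8 and 39.6 FPKM against 1.69, 0.330 and 0.310 (log2 difference 4.86). Sct (secretin, 2.44) and Ghrl (ghrelin, 2.49) were higher in the ileum too. The L cell products Gcg (-0.43) and Pyy (-0.92) were higher in the colon by small amounts. Cck (1.25) and Sst (0.74) were higher in the ileum, though Cck lost its call without ileum 2, ileum 3, colon 1 or colon 2, while Vip (-0.74), Tac1 (0.35), Gal (0.03) and Iapp (0.46) were not called. Cck lost it as deposited and at equal sums as well, and Sst on 3 other scales (adjusted p up to 0.616 in limma). Gcg lost its call without ileum 1, ileum 2 or any colon library, and Pyy without ileum 1, ileum 2, colon 1 or colon 2 and with the library number as a block. Genes that mark enteroendocrine cells in general gave 1 call for the ileum and 2 for the colon among 17.

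Cells of the immune system were read from marker lists. Of 20 genes of T and NK cells, 11 were higher in the ileum and none in the colon, with a median of 0.79. Gzma, the granule protease of cytotoxic lymphocytes, was at 44.0, 45.9 and 234 FPKM in the ileum and at 13.1, 10.7 and 4.90 in the colon (log2 difference 3.00 ± 0.65, limma adjusted p = 0.0113). Ccr9, the homing receptor of small-intestinal lymphocytes, differed by 1.17 and Nkg7 by 1.32. The 11 became 17 without ileum 1, 5 without ileum 2, 7 without colon 1 and 3 without colon 2 or colon 3. Ileum 3 carried the most: the summed FPKM of the list was 145, 191 and 583 in the ileum against 92.3, 78.5 and 63.4 for the colon.

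B cell and MHC class II genes set ileum 1 apart. Cd79a, part of the B cell receptor, was at 3.63, 36.7 and 41.7 FPKM in the ileum and at 12.1, 8.16 and 11.1 in the colon. Cd74, the class II invariant chain, was at 339, 868 and 1569.9 FPKM against 321, 244 and 241. Ileum 1 lay below the colon libraries for the first and near them for the second. None of the 13 B and plasma cell genes and none of the 9 class II genes was called with limma over all 6 libraries (medians 0.69 and 1.27). At an unadjusted p under 0.05 there were 1 and 5, all higher in the ileum, and voom on recovered reads called 0 of 12 and 0 of 8. Without ileum 1, 8 and 9 of them were called higher in the ileum, and 7 instead of 1 of the 14 genes of lymphoid follicles and M cells. The share of follicle in each piece of tissue was not tested.

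Muscle and stroma genes were called higher in the colon or not at all. Of 19 smooth muscle genes 3 were higher in the colon, of 19 fibroblast genes 7 and of 15 neuron and glia genes 4, with none higher in the ileum in these lists and medians of -0.36, -0.62 and -0.50. Of all genes tested 12.6% were higher in the colon and 15.5% in the ileum, so the smooth muscle count is near the colon share of all genes. The smooth muscle count became 1 without ileum 2, ileum 3 or colon 3 and 5 without colon 1. The fibroblast count became 4 without ileum 1 and 3 without colon 2 or colon 3. With the filter applied anew without 1 colon library, 12 neuron and glia genes were tested and 1 or 2 were called higher in the colon. Tagln, a smooth muscle actin-binding protein, was at 251, 269 and 250.1 FPKM in the ileum and at 407, 882 and 596 in the colon, where colon 2 was the highest (log2 difference -1.22). The summed FPKM of the smooth muscle list was 1887, 2131 and 1684 in the ileum against 2011, 4118 and 2895 for the colon, so the segments overlapped only through ileum 2 and colon 1. The part that muscle content has in the epithelial differences was not tested.

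Transcripts of the exocrine pancreas appeared in some libraries of both segments. Amy2a5, pancreatic amylase, was at 625, 54.6 and 17.0 FPKM in the ileum and at 2127, 3.36 and 1549.5 in the colon. Of the 23 tested genes of the list 16 were lowest in colon 2. Without that library 17 were called higher in the colon, against 2 of 23 with it. Those 2 were Sycn and Cela1. Sycn, syncollin, was at 804, 912 and 468 FPKM in the colon and at 27.0, 6.33 and 2.61 in the ileum (log2 difference -6.27 ± 0.68, limma adjusted p = 0.000436). Cela1, an elastase, was at 609, 203 and 375 FPKM against 96.9, 15.5 and 12.2 (log2 difference -3.70). Sycn was highest in colon 2, where Amy2a5 was lowest of all 6 libraries and Cela1 was lowest of the colon libraries. The summed FPKM of the list, which includes Zg16, was 8633 to 11854 in the ileum against 8291 to 14033 for the colon. The part of adhering pancreas in these values was not tested.

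**Figure D3:**
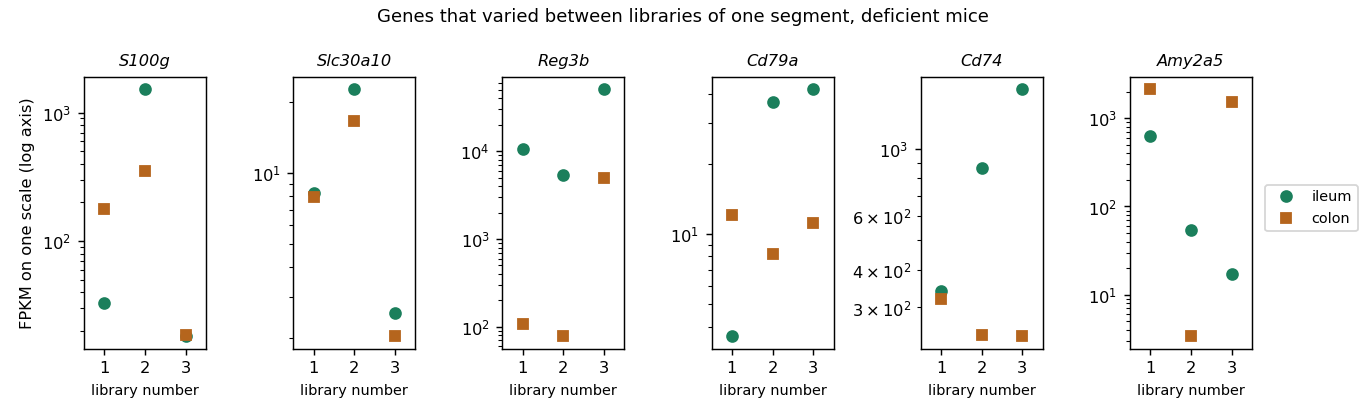
FPKM on one scale (log axes) of 6 genes by library number, with ileum libraries as circles and colon libraries as squares. S100g and Slc30a10 are highest in library 2 of both segments, Reg3b in library 3 of both, Cd79a and Cd74 are low in ileum 1 only among ileum libraries, and Amy2a5 is lowest in colon 2.

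Interferon response genes were higher in the colon of these deficient mice. Of 34 tested, 21 were higher in the colon and 1, Ddx58 (RIG-I), in the ileum, with a median of -0.96. Ifi44, an antiviral gene, was at 7.99, 12.5 and 8.59 FPKM in the colon and at 1.01, 2.00 and 1.37 in the ileum (log2 difference -2.11 ± 0.21, limma adjusted p = 0.000317). Oas2, which makes the activator of ribonuclease L, was at 7.45, 9.61 and 5.94 FPKM against 1.11, 2.22 and 0.691 (log2 difference -1.92). Library 2 was the highest of each segment for both, and the segments did not overlap. Dhx58 differed by -1.57 and the guanylate-binding protein Gbp2 by -1.18. The 21 became 12 without ileum 1 and 13 without colon 2. The call for Ddx58 was lost without ileum 1, ileum 2, colon 1 or colon 3 and on 4 other scales (log2 difference 0.59 to 0.92 over the libraries left out). With the library number as a block, 27 were called higher in the colon and 2 in the ileum.

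Promoters of 3 of these genes are shown because the element for interferon-stimulated transcription can be seen in them. The letters GAAA and GAAACT with any 2 bases between them were searched on both strands in the same windows. They occurred in 73 of 27025 promoters (0.270%), in 36 of 8891 tested genes (0.405%) and in 9 of the 23 listed genes with a window (39.1%). Capitals mark the match or its reverse complement, and the windows are from RefSeq GRCm38.p6, 5′ to 3′ on the gene's strand. Ifit1 and Oas1a were picked after their values were seen.
Ifit1, chr19:34640758-34640838, plus strand: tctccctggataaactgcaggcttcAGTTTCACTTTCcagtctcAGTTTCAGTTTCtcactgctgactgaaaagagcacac
Oas1a, chr5:120907526-120907570, minus strand: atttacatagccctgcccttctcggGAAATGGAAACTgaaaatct
Gbp2, chr3:142620577-142620638, plus strand: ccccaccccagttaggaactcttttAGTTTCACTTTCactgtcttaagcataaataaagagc

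The interferon genes called in deficient mice often had the other sign in treated mice. Of the 22 called, 12 had the same direction there, against 97.1% of all called genes. In treated mice Ifi44 was at 1.16, 1.45, 3.43 and 1.12 FPKM in the ileum and at 5.33, 1.10, 2.76 and 2.28 in the colon, so the ranges overlapped (log2 difference -0.43, limma adjusted p = 0.448). Isg15, chosen after its values were seen, was at 25.2, 51.3 and 38.8 FPKM in the deficient ileum and at 76.8, 124 and 101 in the deficient colon. In treated mice it was at 22.4, 22.9, 31.6 and 24.1 FPKM against 71.7, 8.22, 29.6 and 30.6. The difference between the 2 contrasts was tested as an interaction over all 14 libraries, a test added after the data were seen. Over 13076 genes it called none at an adjusted p under 0.05 (smallest 0.585), and 421 (3.22%) had an unadjusted p under 0.05. Of the 34 interferon genes 14 did, and in all 14 the ileum minus colon difference was lower in deficient mice than in treated mice. The median change in that difference over the 34 genes was -1.03. None of the list passed the adjusted test in limma. The deficient and treated libraries of a segment came from 1 table, and no control library is shared between the 2 contrasts.

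Between the deficient segments 3 of 15 tested vitamin D and calcium genes were called, against 28.1% of all genes tested. So short a list does not set its share apart from that of all genes. Cldn15 was higher in the ileum, Cldn12 and Slc37a2 were higher in the colon, and 12 were not called. Vdr, the receptor, was at 111, 92.3 and 65.9 FPKM in the ileum and at 123, 98.0 and 70.7 in the colon. The ranges overlapped (log2 difference -0.11 ± 0.26, limma adjusted p = 0.791), and library 3 was the lowest of both. Within each number the ileum library was the lower one, and with the number as a block the limma adjusted p was 0.471. Slc37a2, a sugar-phosphate exchanger known to respond to vitamin D, was at 42.1, 40.9 and 13.3 FPKM in the colon and at 0.764, 1.20 and 0.928 in the ileum (log2 difference -3.92 ± 0.40, limma adjusted p = 0.000346). Cldn15, a pore-forming claudin for sodium, differed by 1.59. Cldn12 differed by -0.48, a limma call lost without ileum 2, ileum 3, colon 1 or colon 2 (adjusted p up to 0.15). The partners Rxra (0.54) and Rxrb (-0.08), the calcium pumps Atp2b1 (0.34) and Atp2b4 (-0.43), Cldn2 (-0.16), Pth1r (-0.12), Pdia3 (0.06), Trpm7 (0.13) and Trpm6 (-1.34) were not called, and Trpm6, a magnesium channel, passed the test with the library number as a block.

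S100g, calbindin-D9k of the calcium-absorbing cell, varied more within a segment than between them. It was at 33.3, 1513 and 18.2 FPKM in the ileum and at 179, 352 and 18.7 in the colon (log2 difference -0.11 ± 1.71, limma adjusted p = 0.973). Slc30a10, a manganese exporter, was at 8.19, 22.5 and 2.56 FPKM against 7.89, 16.5 and 2.04. In both genes library 2 was the highest and library 3 the lowest of each segment. Slc30a10 was higher in the ileum within each number (log2 difference 0.23, limma adjusted p = 0.226 with the number as a block). Trpv6, the apical calcium channel, was at 4.36, 3.91 and 0.0407 FPKM in the colon and at no more than 0.0544 in the ileum, and was not tested. Cyp24a1, which inactivates calcitriol, was at 0.168 FPKM or less in all 6 libraries.

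Treated mice gave a second reading of 3 of these genes. S100g was at 859, 2049, 543 and 289 FPKM in the treated ileum and at 5014, 3880.5, 1703 and 3917 in the treated colon, a log2 difference of -2.22 with a limma adjusted p of 0.0231. The interaction of S100g was 2.10 ± 1.86 with an unadjusted limma p of 0.279, so a change in its segment difference was not called. Trpv6 was at 0.0118, 0.554, 0.265 and 0.214 FPKM in the treated ileum and at 51.7, 62.3, 32.1 and 99.6 in the treated colon. The interaction of Trpv6 was 3.99 ± 0.68 with an unadjusted p of 5.82e-05 and an adjusted p of 0.585 in limma. Trpv6 passed the filter of that fit through the colon alone, since no ileum library reached 1 FPKM. Its interaction therefore describes the colon values and carries no further weight. Cyp24a1 was at 5.91 to 597 FPKM in the treated ileum and at 2.41 to 332 in the treated colon.

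Metabolic groups were more mixed. Of 21 vitamin A genes 12 were higher in the ileum and 2 in the colon. Some members passed the filter through the ileum alone. With the filter applied anew, the ileum calls were 8 of 19 without ileum 1. They were 7 of 18 without ileum 2 and 10 of 18 without ileum 3. Rdh7, a retinol dehydrogenase, was at 74.0, 85.6 and 17.1 FPKM in the ileum and at 0, 0.398 and 0 in the colon (log2 difference 5.45), and Dgat1, which esterifies retinol and diglycerides, differed by 3.81. The urea cycle enzymes Cps1 (4.66), Otc (2.83) and Nags (2.68) and the ornithine carrier Slc25a15 (3.03), which together make citrulline in the small intestine, were higher in the ileum. Ass1 (-1.37), which uses citrulline, and Glul (-2.01), which makes glutamine, were higher in the colon. Of 19 genes of this list 10 were higher in the ileum and 2 in the colon, and its median of 0.54 was -0.08 with libraries brought to an equal sum.

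Drug-metabolising enzymes divided by family. Of 60 tested, 23 were higher in the ileum and 18 in the colon. With the filter applied anew, the ileum calls were 16, 17 or 21 without ileum 1, ileum 2 or ileum 3. The colon calls were then 11 or 12 without 1 colon library. The median of 0.17 was -0.14 as deposited and -0.43 with libraries brought to an equal sum. Cyp3a25 was at 157, 101 and 70.0 FPKM in the ileum and at 1.57, 0.510 and 0.294 in the colon (log2 difference 5.93 ± 0.34, limma adjusted p = 2.04e-05). Cyp2d34 was the reverse, at 205, 169.9 and 107 FPKM in the colon and at 0.260, 0.214 and 0.787 in the ileum (-6.80 ± 0.26, limma adjusted p = 4.11e-06). Cyp2d9 (-4.57), Cyp2d10 (-4.34) and Ugt1a6a (-3.67) were higher in the colon, and Ces2e (2.38) and Sult2b1 (2.74) in the ileum. The Cyp2d genes are near-identical copies, so the split of reads among them is uncertain.

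Genes of ion transport and of glycoprotein sugars had members on both sides. Of 9 phosphate genes 4 were higher in the ileum and 1 in the colon, of 14 iron genes 4 and 3, and of 24 glycan genes 7 and 11. The phosphate carriers were opposite: Slc34a2 was at 197, 136 and 152 FPKM in the ileum against 6.36, 13.0 and 4.04 in the colon (log2 difference 4.32), and Slc20a1 at 262, 192 and 61.4 in the colon against 17.1, 15.3 and 6.95 in the ileum (-3.47). The iron exporter Slc40a1 (ferroportin) was higher in the colon (-2.36), while Heph, the ferroxidase that works with it, was higher in the ileum (1.35). St6galnac6, a sialyltransferase, was at 277, 259 and 234 FPKM in the colon and at 3.78, 3.31 and 2.01 in the ileum (-6.02 ± 0.19, limma adjusted p = 2.08e-06), and St3gal4, another, was higher in the ileum (2.75).

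Few genes of proliferation and energy supply were called, against 28.1% of all genes tested. Of 35 proliferation genes 1, the mitotic kinase Plk1, was called (-0.96), with a median of -0.00, and without colon 3 another 4 were called higher in the ileum. Of 52 subunits of oxidative phosphorylation 3 were higher in the ileum and 1 in the colon, but the ileum calls became 0 without colon 1 or colon 3 and 1 without ileum 2 or colon 2. The single colon call became 13 without ileum 3 and 0 without each of the other libraries in turn. Stem cell and Wnt target genes were split, 7 each way among 23, and with the filter applied anew the ileum calls became 3 without ileum 1 and 4 without ileum 2 or ileum 3. Axin2 (1.42), Wnt3 (2.16) and Sp5 (2.14) were higher in the ileum, and Prom1 (-1.88), Sox9 (-0.96) and Kit (-0.97) in the colon. Wnt3, a ligand made by Paneth cells, was at 3.42, 3.45 and 4.37 FPKM in the ileum and under 0.1 in each colon library.

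**Figure D4:**
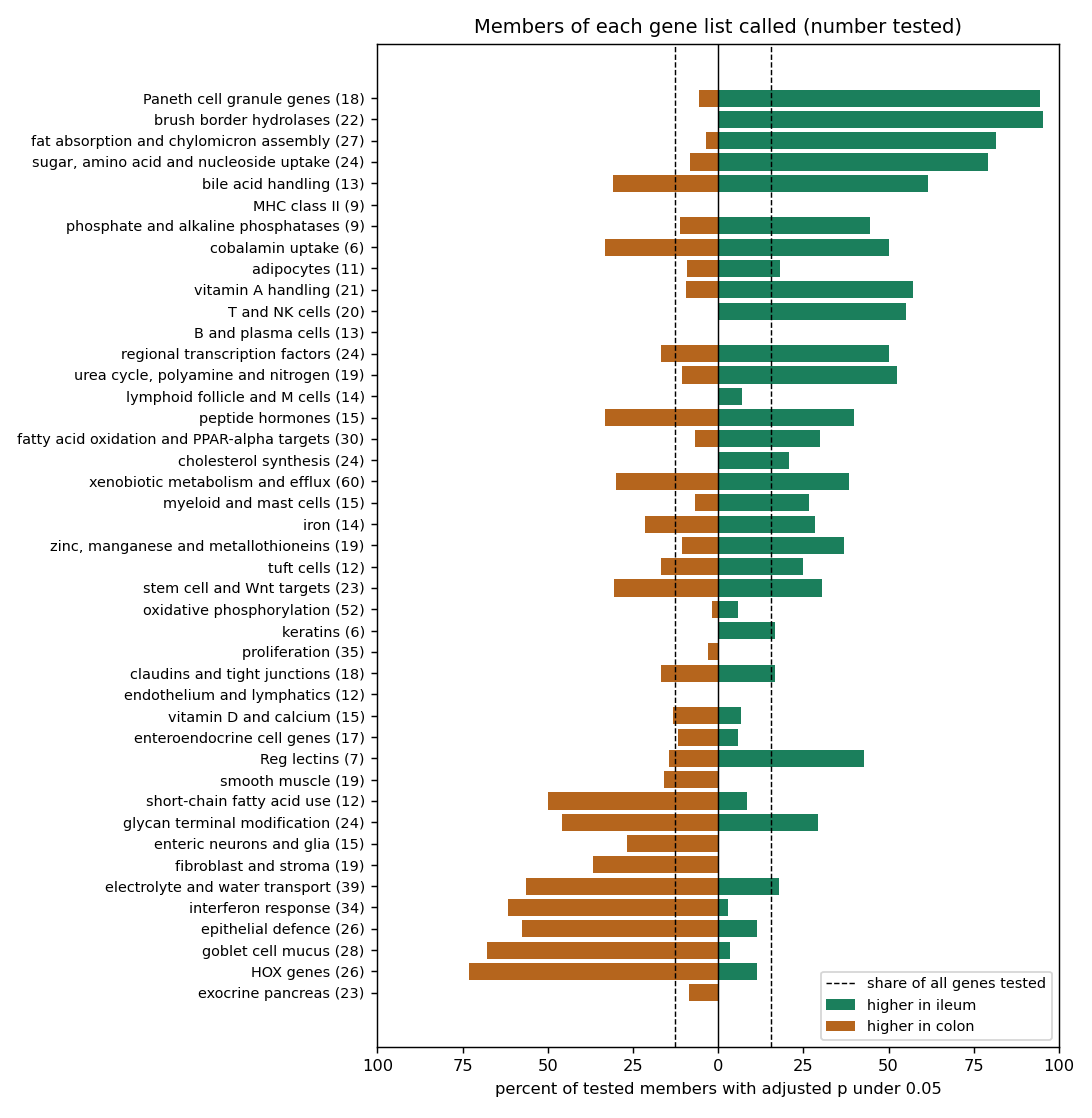
Percent of the tested members of each gene list with 6 or more tested genes that were called higher in the ileum (right) or in the colon (left), with the number tested in brackets and dashed lines at the 15.5% and 12.6% of all genes tested. Lists are ordered by their median difference, from the Paneth cell list at 8.37 to the exocrine pancreas list at -1.79.

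Treated mice, whose libraries took no part in these calls, showed the same segment differences for most genes. There 12343 genes were tested, of which 1541 (12.5%) were higher in the ileum and 1320 (10.7%) in the colon. Of the 3399 genes called in deficient mice and tested in both, 3300 (97.1%) had the same direction and 2213 were also called. Among those higher in the ileum 1852 of 1884 (98.3%) kept their direction, and among those higher in the colon 1448 of 1515 (95.6%). Genes not called in deficient mice had the same sign in 6192 of 8776 cases (70.6%). Fabp6 was at 11306, 9971, 2181 and 11398 FPKM in the treated ileum and at 112, 238, 33.6 and 53.7 in the treated colon (log2 difference 6.43). Hoxb13 was at 0 to 0.488 FPKM in the treated ileum and at 82.3 to 214 in the treated colon (-6.81). In both genes the treated segments lay apart as the deficient ones did.

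**Figure D5:**
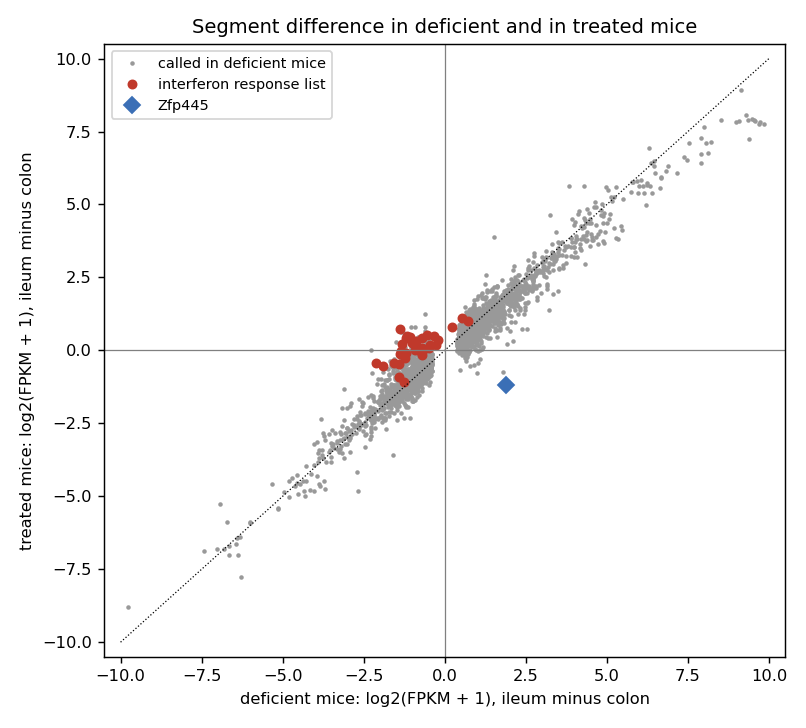
Difference in log2(FPKM + 1) between ileum and colon in treated mice (vertical axis) against that in deficient mice (horizontal axis) for genes called in deficient mice and tested in both (grey), with the interferon list in red, Zfp445 as a blue diamond and a dotted line of equal values. Of the grey genes 97.1% lie in the 2 quadrants of equal sign, while the interferon genes cluster near 0 on the vertical axis.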

How the data were processed

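RNA was read as poly(A) libraries made with an NEBNext Ultra II kit and mapped in CLC Genomics Workbench, per the labels' protocols. The submitters' processing notes also name kallisto 0.45.0, DESeq 1.14.0, DESeq2 and mm9, without giving their roles. The deposited values are FPKM that the authors normalized separately in each table. Columns named Vehicle were taken as the deficient group, because each table is named for deficient against injected mice. The labels' own sample names do not tie a column to one mouse. Files of other segments were not used here, and the ileum table of 8 libraries was left out, since 171528 of its 171528 values equal those of the duodenum table.

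Each of the 6 columns was rescaled by its median ratio over the 15329 genes above 0 in all 6. Genes with at least 1 FPKM in 3 or more columns were compared on log2(FPKM + 1) with limma 3.58.1 (trended variance, two-sided, Benjamini-Hochberg threshold 0.05) in R 4.3.3, with no covariate. For genes near 0 in one segment the pseudocount of 1 sets the log2 difference, which understates the change. Treated libraries were fitted alone in the same way (1 FPKM in 4 or more columns). Whole read numbers were recovered for 14452 of 17383 genes (83.1%, tolerance 0.0001), as the smallest whole numbers that gave the ratios between libraries. They fed limma's voom as an alternative. Such a number need not be a true count. Cldn14 was given totals of 8107 in the ileum and 374586 in the colon, while the pseudocount, which matters at low FPKM, held its log2 difference at -1.75. On simulated data with 12506 genes, of which only a small part was changed, 54.0% of 2-fold and 92.0% of 4-fold changes were called. So few changes make the adjusted threshold stricter than in the real comparison, and these shares do not carry over to it.

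Libraries of the same column number resembled each other across the segments. Their deviations from the segment means correlated at 0.32, 0.22 and 0.31, against -0.33 to 0.09 for other pairs. Deviations cancel out within a segment, so positive values for same-numbered libraries bring lower ones for other pairs. What a number stands for is not in the labels, so a pairing is not established. The members and the 45 gene lists were chosen with earlier results of these data known. Named genes were taken from the 12 largest differences per direction among genes of at least 20 FPKM, up to 4 calls per list and direction, all tested members of the regional factor, HOX, bile acid, vitamin D and hormone lists, abundant uncalled members of 5 lists, and the segment markers. Some genes that the rule selects are not reported here. Genes outside this rule, such as Treh, Cyp3a11, Ifit1, Oas1a and Isg15, were chosen after their values were seen. The interaction over 14 libraries, and leaving out libraries with the same genes tested, were added after the data were seen. Alternatives were other pseudocounts, filters and scales, a block by number, voom, robust variance, the colon table of 8 libraries and each library left out. Positions are those of gencode vM1 on NCBIM37 and promoter windows those of RefSeq on GRCm38.p6. Gene symbols that had been turned into dates (25) were not matched. Tables were written with Python 3.11.15, pandas 2.3.3 and numpy 2.4.6, and figures with matplotlib 3.10.9.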

Additional observations from a re-analysis of the deposited data

Results flagged for a closer look

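Zfp445, a zinc finger gene, was the single gene called in opposite directions in deficient and treated mice. In deficient mice it was at 4.85, 6.99 and 4.93 FPKM in the ileum and at 1.69, 1.06 and 0 in the colon, a log2 difference of 1.88. In treated mice it was at 2.74, 2.94, 0.474 and 2.62 FPKM in the ileum and at 10.2, 5.33, 5.25 and 3.82 in the colon, a log2 difference of -1.19 with a limma adjusted p of 0.045. Each segment pair lay apart without overlap, in opposite order. The difference between the 2 contrasts, tested as an interaction that was added after the data were seen, was 3.07 ± 0.57 with an unadjusted p of 0.000117 and an adjusted p of 0.585 over 13076 genes in limma.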

How the results depend on the processing

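Over the named genes, 6581 values under alternatives kept direction and call, 351 lost the call, 62 gained one and 70 changed sign. With libraries brought to an equal sum, 6903 genes were called and 2788 at 2-fold or more. On that scale the differences were -0.27 for Atp2b1, -0.57 for Gal, -0.02 for Gata6, -0.22 for Hoxb2, -0.45 for Hoxb4, -0.40 for Hoxb7, -0.56 for Pdia3, -0.01 for Rxra, -0.12 for Sdhb, -0.29 for Slc30a10, -0.23 for Tac1, -0.46 for Trpm7, -0.12 for Uqcrc1, -0.45 for Xbp1 and -0.27 for Zg16. As deposited they were -0.28 for Gal, -0.17 for Hoxb4, -0.12 for Hoxb7, -0.27 for Pdia3, -0.04 for Slc30a10, -0.17 for Trpm7 and -0.15 for Xbp1. After quantile normalization they were -0.07 for Gal, -0.35 for Pdia3, -0.32 for Tff3, -0.09 for Xbp1 and -1.54 for Zg16. With a median ratio over well-expressed genes they were -0.08 for Gal and -0.06 for Pdia3, and voom gave 0.06 for S100g. The cause was not tested.

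Leaving out 1 library gave 2098 (without colon 2) to 3436 calls with the filter applied anew, and 2323 (without colon 2) to 3624 over the same genes. The sign changed for Amy2a5 (-4.41 to 0.06), Cldn2 (-0.39 to 0.04), Gal (-0.08 to 0.11), Hoxb4 (-0.02 to 0.24), Myl9 (-0.37 to 0.04), Pdia3 (-0.04 to 0.18), S100g (-2.07 to 1.08), Satb1 (-0.24 to 0.04), Slc30a10 (-0.45 to 0.91), Trpm7 (-0.02 to 0.24) and Vdr (-0.32 to 0.09). The library number as a replicate block gave 4042 calls and 1613 at 2-fold or more. Under the block Cyp27a1, Plin2, Prdm1, Trpm6 and Vip gained a call, Hoxb8, Pyy and Tpm2 lost it, and no other gene followed there changed. Of 12506 genes, voom on recovered reads could test 10004 and called 2663.

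With 3 libraries per segment, 2-fold differences were often missed in the simulated data. Far fewer genes were changed there than were called here, so the share missed in the real comparison is not known. Sex and age could not be matched to columns, so their part was not tested. Table and segment cannot be told apart.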

Other observations

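Some tight junction and lipid genes differed between the segments, within lists that showed little shift as a whole. Of 18 claudin and tight junction genes 3 were higher in each segment, with a median of -0.01. These counts are near the shares of all genes tested, 15.5% higher in the ileum and 12.6% in the colon. Cldn8, a barrier claudin of the distal gut, was at 46.5, 23.1 and 17.9 FPKM in the colon and at 2.99, 1.85 and 2.51 in the ileum (log2 difference -3.03), and Cldn14 differed by -1.75. Cldn4 (1.70) and Cldn7 (1.05) were higher in the ileum. The 3 ileum calls became 5 without ileum 3, and with the filter applied anew the 3 colon calls became 1 without colon 1 or colon 2. Of 24 genes of cholesterol synthesis 5 were higher in the ileum, not far above the share of all genes, and none in the colon. The median of that list was 0.20, but -0.11 as deposited, -0.05 after quantile normalization and -0.40 with libraries brought to an equal sum. Of 30 genes of fatty acid oxidation 9 were higher in the ileum and 2 in the colon, and the median of 0.23 was -0.08 as deposited and -0.36 with libraries brought to an equal sum.

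Of 19 genes of zinc, manganese and metallothioneins 7 were higher in the ileum and 2 in the colon, and the 7 became 5 without colon 2. The zinc exporter Slc30a2 (4.08) and the importer Slc39a5 (1.71) were on the ileal side, and Mt3 (-2.61), a metallothionein, on the colonic side. Of 12 tuft cell genes 3 were higher in the ileum and 2 in the colon, of 15 myeloid and mast cell genes 4 and 1 (3 and 2 without ileum 3), of 6 keratins 1 (Krt20, 1.43) and 0, and of 12 endothelial genes none in either segment with limma (1 at an unadjusted p under 0.05, and 0 of 10 by voom). The 3 ileum calls of the tuft cell list became 1 without ileum 1, ileum 2, colon 1 or colon 3, and its 2 colon calls became 1 without colon 2. Of all genes tested 15.5% were higher in the ileum and 12.6% in the colon. The tuft cell, myeloid and keratin lists are too short to set their shares apart from these.

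Markers of the stomach and liver were at low levels. The summed FPKM of 17 stomach genes was 6.81, 2.64 and 2.30 in the ileum against 34.3, 19.7 and 27.7 for the colon, with Ctse (-3.22) and Vsig1 (-1.59) called among 3 tested, and Gkn1 and Gkn2 were listed at 0. Of 4 tested hepatocyte genes 2 were higher in the colon, Tat (-1.92) and Ttr (-1.67). Tat lost its call without colon 1 or colon 2 (-2.36 to -1.36 over the libraries left out), and Ttr without ileum 2 with the filter applied anew. Of 11 adipocyte genes, Lipe (2.51), a hormone-sensitive lipase also used by enterocytes, was among 2 higher in the ileum, and Pparg (-2.20), also a factor of colonocytes, was the single one higher in the colon. The 2 became 1 without ileum 2 or colon 1 and 4 without ileum 3. The summed FPKM of the adipocyte list was 659.9, 532 and 463 in the ileum against 247, 395 and 366 for the colon. What part neighbouring tissue has in any result was not tested.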
